A study of Mus musculus with 12 samples.

Results

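Acsf2, Myh9, Bbip1, Mapre2, Zfhx3, Isoc1, Irak1 and Cbfa2t3 are 8 genes whose array signal in the fundic mucosa of gastrin-CCK double knockout mice lay apart from that of saline-infused gastrin knockout mice. The genes were chosen by their measured values in that comparison, so the differences there are a description of the choice and carry no test. They are measured by 25 probe sets, of 22626 probe sets and 12393 genes on the array, and each probe set was read on its own. Each probe set combines several oligonucleotides aimed at 1 transcript, or at near copies of it, and its value is a linear intensity.

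The fundus is the acid-secreting part of the stomach, and RNA came from scrapings of its mucosa, with 3 arrays in each of 4 groups. Wild type mice were not described as infused, and each of their samples pooled a few mice. Gastrin knockout mice received saline for 1 week (2 month old males, per the labels) or gastrin for 1 week. For the gastrin-CCK double knockout the labels mention no infusion, and like wild type and the gastrin-infused group it comes with no stated age. Loss of gastrin is shared by 3 groups, loss of CCK belongs to 1, and the double knockout and the saline-infused knockout differ in infusion as well as in genotype. The labels do not say that the replicates came from separate animals, so the p-values cover only the spread seen among these samples, part or all of which may be technical.

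Gastrin is a peptide hormone of the stomach antrum that drives acid secretion and growth of the fundic mucosa, and CCK (cholecystokinin) is a related peptide that shares a receptor with it. The 8 genes belong to no single pathway. Acsf2 encodes an acyl-CoA synthetase, an enzyme that activates fatty acids for metabolism, Myh9 the heavy chain of nonmuscle myosin IIA, a motor of the cell cortex, and Bbip1 a subunit of the BBSome, a complex that carries membrane proteins to and from cilia. Mapre2 encodes EB2, a protein of growing microtubule ends, Zfhx3 a zinc finger and homeobox transcription factor, and Isoc1 a protein with an isochorismatase domain. Irak1 encodes a kinase of interleukin-1 and Toll-like receptor signalling, and Cbfa2t3 a transcriptional corepressor of the ETO family.

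Promoter windows of 300 bases (250 before and 50 after the annotated start) were found in RefSeq for 6 of the 8 genes, with 8 windows in all on mouse build GRCm38.p6. The windows of the genes that were lower in the double knockout are shown with those of 3 genes that were higher, so that both directions can be set side by side. They run 5′ to 3′ on the gene's strand, and capitals mark the letters GGGCGG, a GC box, on that strand or its reverse complement CCGCCC. The Acsf2 window is chr11:94601737-94602036 (minus strand), that of Myh9 chr15:77842126-77842425 (minus), that of Bbip1 chr19:53944578-53944877 (minus), that of Zfhx3 chr8:108714394-108714693 (plus), the first of 2 for Irak1 chrX:74023869-74024168 (minus) and the first of 2 for Cbfa2t3 chr8:122678126-122678425 (minus).
Acsf2: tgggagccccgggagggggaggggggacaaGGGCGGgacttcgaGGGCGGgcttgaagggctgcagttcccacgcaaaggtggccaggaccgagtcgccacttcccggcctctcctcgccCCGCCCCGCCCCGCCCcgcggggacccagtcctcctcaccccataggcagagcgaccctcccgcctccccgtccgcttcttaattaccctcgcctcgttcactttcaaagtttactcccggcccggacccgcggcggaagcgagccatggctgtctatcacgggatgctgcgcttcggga
Myh9: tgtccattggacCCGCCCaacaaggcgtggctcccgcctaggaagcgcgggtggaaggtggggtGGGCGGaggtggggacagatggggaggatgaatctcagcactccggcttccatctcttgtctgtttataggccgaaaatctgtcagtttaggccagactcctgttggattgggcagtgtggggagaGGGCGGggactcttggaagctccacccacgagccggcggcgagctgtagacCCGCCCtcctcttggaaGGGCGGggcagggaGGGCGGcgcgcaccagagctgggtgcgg
Bbip1: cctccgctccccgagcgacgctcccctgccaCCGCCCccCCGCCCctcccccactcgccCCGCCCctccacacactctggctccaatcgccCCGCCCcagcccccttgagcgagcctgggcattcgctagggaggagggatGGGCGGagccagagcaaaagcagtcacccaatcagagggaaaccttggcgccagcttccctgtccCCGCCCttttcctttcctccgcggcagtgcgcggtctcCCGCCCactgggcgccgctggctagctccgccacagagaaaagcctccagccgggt
Zfhx3: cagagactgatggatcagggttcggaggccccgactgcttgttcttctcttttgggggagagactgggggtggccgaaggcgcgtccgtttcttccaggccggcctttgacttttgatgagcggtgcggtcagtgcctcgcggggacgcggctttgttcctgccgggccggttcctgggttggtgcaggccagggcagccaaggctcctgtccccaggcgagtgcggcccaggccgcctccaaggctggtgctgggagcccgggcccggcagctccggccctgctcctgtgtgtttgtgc
Irak1: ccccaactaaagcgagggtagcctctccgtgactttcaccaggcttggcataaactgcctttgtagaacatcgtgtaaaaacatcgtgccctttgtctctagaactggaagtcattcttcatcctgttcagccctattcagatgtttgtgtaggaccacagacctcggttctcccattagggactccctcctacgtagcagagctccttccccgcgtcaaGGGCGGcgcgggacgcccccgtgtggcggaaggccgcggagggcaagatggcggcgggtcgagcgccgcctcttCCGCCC
Cbfa2t3: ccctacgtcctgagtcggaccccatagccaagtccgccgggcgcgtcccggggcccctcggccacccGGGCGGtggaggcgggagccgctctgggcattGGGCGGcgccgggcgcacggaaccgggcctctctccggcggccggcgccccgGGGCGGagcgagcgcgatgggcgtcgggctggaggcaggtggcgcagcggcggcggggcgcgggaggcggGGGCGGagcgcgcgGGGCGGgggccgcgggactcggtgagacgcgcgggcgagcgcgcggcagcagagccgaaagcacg
The GC box letters occurred in the windows of 5 of the 6 matched genes, all but Zfhx3, and in 35.66% of all 32851 promoter windows of this length. Acsf2 held 5 of them, Myh9 6 and Bbip1 7 among the genes that were lower. Among those that were higher the first Cbfa2t3 window held 5 and the second 1, the first Irak1 window 2 and the second 1, and Zfhx3 0. The 8 windows were 58.33% to 81.67% G or C and the median over all windows was 52.67%. The letters CANNTG were in windows of 3 of the 6 genes and in 72.31% of all windows, CCAAT (either strand) in 3 of 6 and in 37.41%, and TGANTCA in 0 of 6 and in 7.808%. These are matches of letters in a fixed window. The arrays measure RNA and carry no reading of binding at these windows.

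Acsf2, Bbip1 and, on 2 of its 4 probe sets, Myh9 were lower in the double knockout than on every other array. The probe set of Acsf2, 1425355_at, read 1655, 1239 and 1264 in wild type, 1157, 1162 and 1446 in the saline-infused knockout, 1351, 1338 and 1485 in the gastrin-infused knockout, and 228, 294 and 326 in the double knockout. The double knockout arrays lay far below the other 9, which overlapped among themselves. The fitted log2 difference from the saline-infused knockout was -2.16 ± 0.16 (SE, limma), a 4.46-fold lower signal, and from wild type -2.30 ± 0.16. Acsf2 has 1 probe set on the array, so no other probe set can be set beside it. In RNA from a whole scraping, here and for every gene that follows, fewer cells of a type and less RNA per cell cannot be told apart.

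Bbip1, also with 1 probe set (1456393_at), read 17562, 17315 and 19678 in wild type, 20359, 18852 and 15250 in the saline-infused knockout, 17291, 17973 and 21714 in the gastrin-infused knockout, and 6387, 6348 and 6305 in the double knockout. The 3 double knockout readings were close to one another and below all others, and the 3 other groups overlapped. The log2 difference from the saline-infused knockout was -1.51 ± 0.12 (2.84-fold lower), and from wild type -1.52 ± 0.12. This was one of the brightest probe sets, and the bright end of the double knockout arrays was itself lower, as described further on. After quantile normalization, which gives all arrays the same distribution, the Bbip1 difference was -1.38.

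Myh9 has 4 probe sets, and they did not move together. Probe set 1420172_at read 10008, 9779 and 10765 in wild type, 8544, 9338 and 8372 in the saline-infused knockout, 7632, 7505 and 6988 in the gastrin-infused knockout, and 2496, 2827 and 2269 in the double knockout. All 4 groups stood in separate ranges on this probe set, with the double knockout lowest (log2 difference from the saline-infused knockout -1.79 ± 0.09, 3.47-fold lower; from wild type -2.01 ± 0.09). Probe set 1420171_s_at gave a smaller difference in the same direction, with 5600, 5994 and 5476 in the saline-infused knockout and 3669, 4083 and 3595 in the double knockout (-0.59 ± 0.10). The 2 others did not follow. Probe set 1417472_at read 2004, 2301 and 3218 in wild type, 3558, 3876 and 4141 in the saline-infused knockout, 3285, 3870 and 4186 in the gastrin-infused knockout, and 4082, 4931 and 2893 in the double knockout. Here the double knockout overlapped both other knockout groups (0.01 ± 0.22 from the saline-infused knockout). Probe set 1420170_at also overlapped both, with a difference of 0.09 ± 0.29 from the saline-infused knockout. Against wild type the double knockout was higher in mean on 1417472_at (0.66 ± 0.22) and 1420170_at (0.92 ± 0.29, with no overlap), opposite to 1420172_at. Taken over the 4 probe sets of Myh9, the mean log2 difference from the saline-infused knockout was -0.57. The probe sets of this gene therefore give no single level for its RNA.

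**Figure D1:**
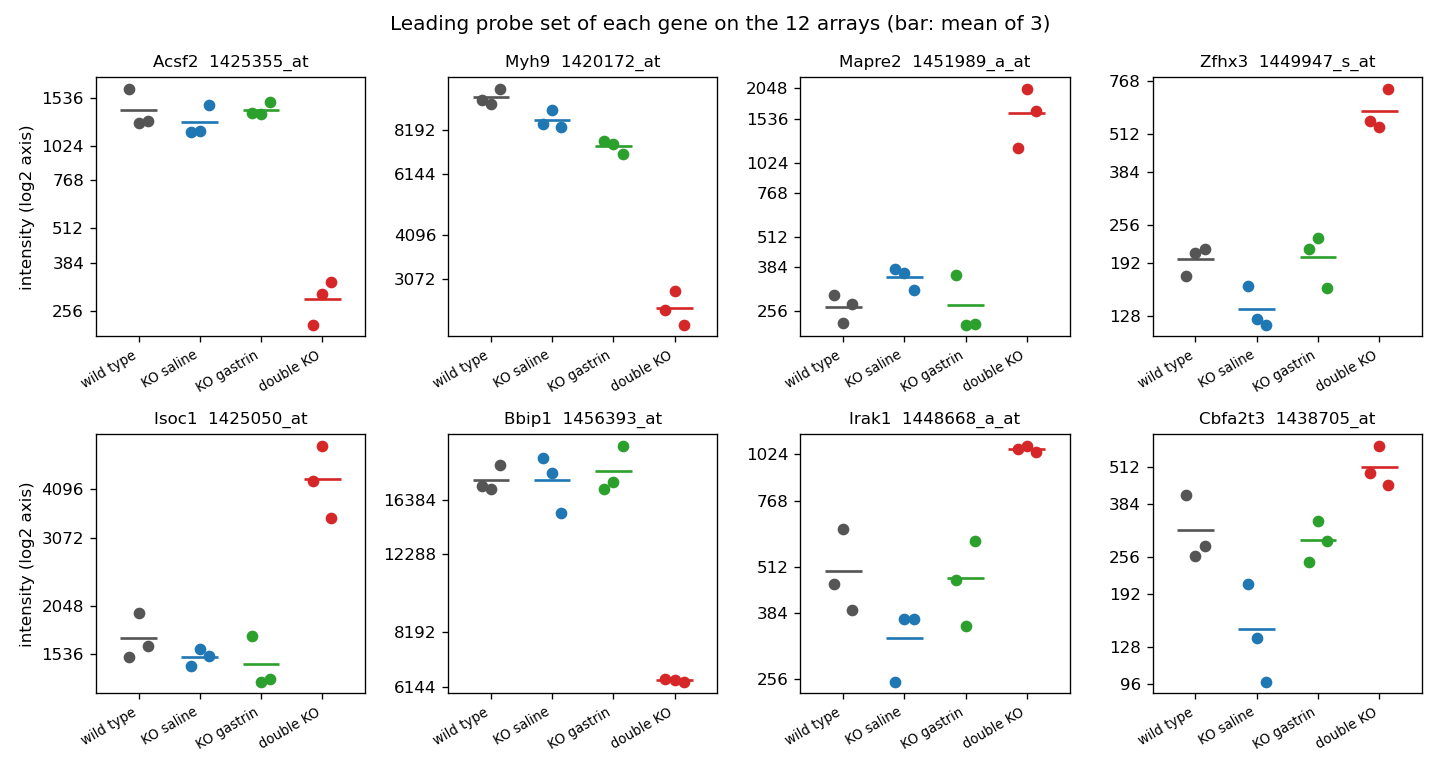
Intensity (log2 axis, 1 panel per gene with its own range) of the leading probe set of each gene on the 12 arrays, with points for arrays and bars for the mean of 3. The 3 double knockout arrays lie below the 9 others for Acsf2, Myh9 and Bbip1 and above them for the other 5 genes. In the Myh9, Zfhx3, Irak1 and Cbfa2t3 panels the 3 saline-infused arrays also lie below the 3 wild type arrays, and in the Mapre2 panel they lie above them.

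Mapre2, Zfhx3, Isoc1, Irak1 and Cbfa2t3 were higher in the double knockout. The leading probe set of Mapre2, 1451989_a_at, read 296, 229 and 274 in wild type, 380, 366 and 310 in the saline-infused knockout, 359, 225 and 226 in the gastrin-infused knockout, and 1169, 2037 and 1664 in the double knockout. All double knockout arrays were well above the highest of the other 9. The log2 difference was 2.17 ± 0.24 from the saline-infused knockout (4.51-fold higher) and 2.58 ± 0.24 from wild type (5.98-fold). The 3 other probe sets of Mapre2 overlapped between the double knockout and the saline-infused knockout, with log2 differences of -0.15 ± 0.23, 0.07 ± 0.11 and -0.18 ± 0.37. One of these, 1426245_s_at, was the brightest of the 4 and read 2056, 2614 and 1860 in the saline-infused knockout against 2202, 2434 and 2156 in the double knockout. On the other 2, 1426244_at and 1451990_at, the double knockout arrays were all below the wild type arrays (-0.40 ± 0.23 and -0.57 ± 0.37), opposite to the leading probe set. The higher level of Mapre2 was thus a reading of 1 probe set in 4.

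All 3 probe sets of Zfhx3 were higher in mean in the double knockout than in the saline-infused knockout, and 2 of them passed. Its leading probe set, 1449947_s_at, read 174, 207 and 214 in wild type, 161, 125 and 120 in the saline-infused knockout, 213, 232 and 159 in the gastrin-infused knockout, and 567, 542 and 724 in the double knockout. The double knockout was above all others, and the saline-infused knockout was below wild type. The log2 difference was 2.18 ± 0.18 from the saline-infused knockout (4.52-fold) and 1.62 ± 0.18 from wild type (3.07-fold). Probe set 1420650_at read 202, 192 and 136 in the saline-infused knockout and 296, 493 and 467 in the double knockout (1.23 ± 0.24), again with no overlap. The third, 1420649_at, read 280, 405 and 238 against 388, 474 and 1394 (1.08 ± 0.45). In that probe set 1 double knockout array stood far above the other 2, and the probe set did not pass.

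The leading probe set of Isoc1, 1425050_at, read 1508, 1965 and 1617 in wild type, 1431, 1583 and 1523 in the saline-infused knockout, 1713, 1307 and 1327 in the gastrin-infused knockout, and 4307, 5287 and 3452 in the double knockout. The double knockout arrays were all above the rest, by a log2 difference of 1.50 ± 0.17 from the saline-infused knockout (2.83-fold) and 1.35 ± 0.17 from wild type (2.54-fold). The other 3 probe sets lay in the same direction with smaller differences, 0.81 ± 0.13, 0.35 ± 0.11 and 0.24 ± 0.09. The second of these, 1425052_at, was just outside the threshold that chose the genes (limma adjusted p 0.0944) and inside it after quantile normalization (0.045).

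On 3 of the 4 probe sets of Irak1 the double knockout stood above all other arrays. The leading one, 1448668_a_at, read 460, 648 and 392 in wild type, 252, 370 and 370 in the saline-infused knockout, 473, 355 and 602 in the gastrin-infused knockout, and 1061, 1079 and 1042 in the double knockout. The double knockout arrays were close together and above the other 9 (1.70 ± 0.24 from the saline-infused knockout, 3.26-fold; 1.12 ± 0.24 from wild type, 2.17-fold). Probe sets 1438120_x_at and 1438857_x_at gave 0.65 ± 0.18 and 0.73 ± 0.16 from the saline-infused knockout and were also above all other arrays. Their adjusted p in the choosing comparison, 0.0639 and 0.0331, lay just outside and just inside the threshold of 0.05. The fourth, 1460649_at, read 619, 793 and 703 in the saline-infused knockout and 964, 926 and 631 in the double knockout, which overlapped (0.24 ± 0.21), and it was lower in the double knockout than in wild type on average (-0.31 ± 0.21).

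Cbfa2t3 is a gene whose leading probe set was itself low in the saline-infused knockout. That probe set, 1438705_at, read 410, 258 and 277 in wild type, 207, 137 and 98 in the saline-infused knockout, 245, 338 and 289 in the gastrin-infused knockout, and 486, 600 and 445 in the double knockout. The double knockout was above all other arrays, but by less over wild type (0.72 ± 0.28, 1.64-fold) than over the saline-infused knockout (1.85 ± 0.28, 3.60-fold). The saline-infused knockout lay below wild type on every array (log2 difference -1.13 ± 0.28), as it did on the leading probe sets of Zfhx3 (-0.56 ± 0.18), Irak1 (-0.59 ± 0.24) and Myh9 (-0.22 ± 0.09). The other usable Cbfa2t3 probe sets did not show it (-0.12 ± 0.23 and 0.13 ± 0.24). Of its 3 other probe sets, 1418582_at was higher in the double knockout than on all other arrays. It differed from the saline-infused knockout by 0.61 ± 0.23 and did not pass (limma adjusted p 0.154). Probe set 1440964_s_at overlapped (-0.11 ± 0.24), and 1440963_at was within the array noise on 7 of 12 arrays and gives no usable level.

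Across the 25 probe sets, 12 passed the limma threshold (adjusted p under 0.05 over all probe sets) between the double knockout and the saline-infused knockout, 8 higher and 4 lower. Of all probe sets 5.98% passed, 3.22% higher and 2.76% lower. Because the genes were chosen on this comparison, nothing is read from the difference between these shares. The 13 others did not pass. The median size of the log2 difference was 1.82 for the 8 leading probe sets, 0.35 for the 17 others and 0.25 over the whole array. Among the 6 genes with more than 1 probe set, 4 (Myh9, Zfhx3, Isoc1 and Irak1) had another that passed in the same direction, and 0 had one that passed the opposite way. Over the whole array 688 genes had a passing probe set and at least 1 more. Of these, 131 (19.0%) had another passing the same way and 11 the opposite way. The choice of the genes bears on this count too, and nothing is read from the difference. For Mapre2 and Cbfa2t3 only the leading probe set passed.

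**Figure D2:**
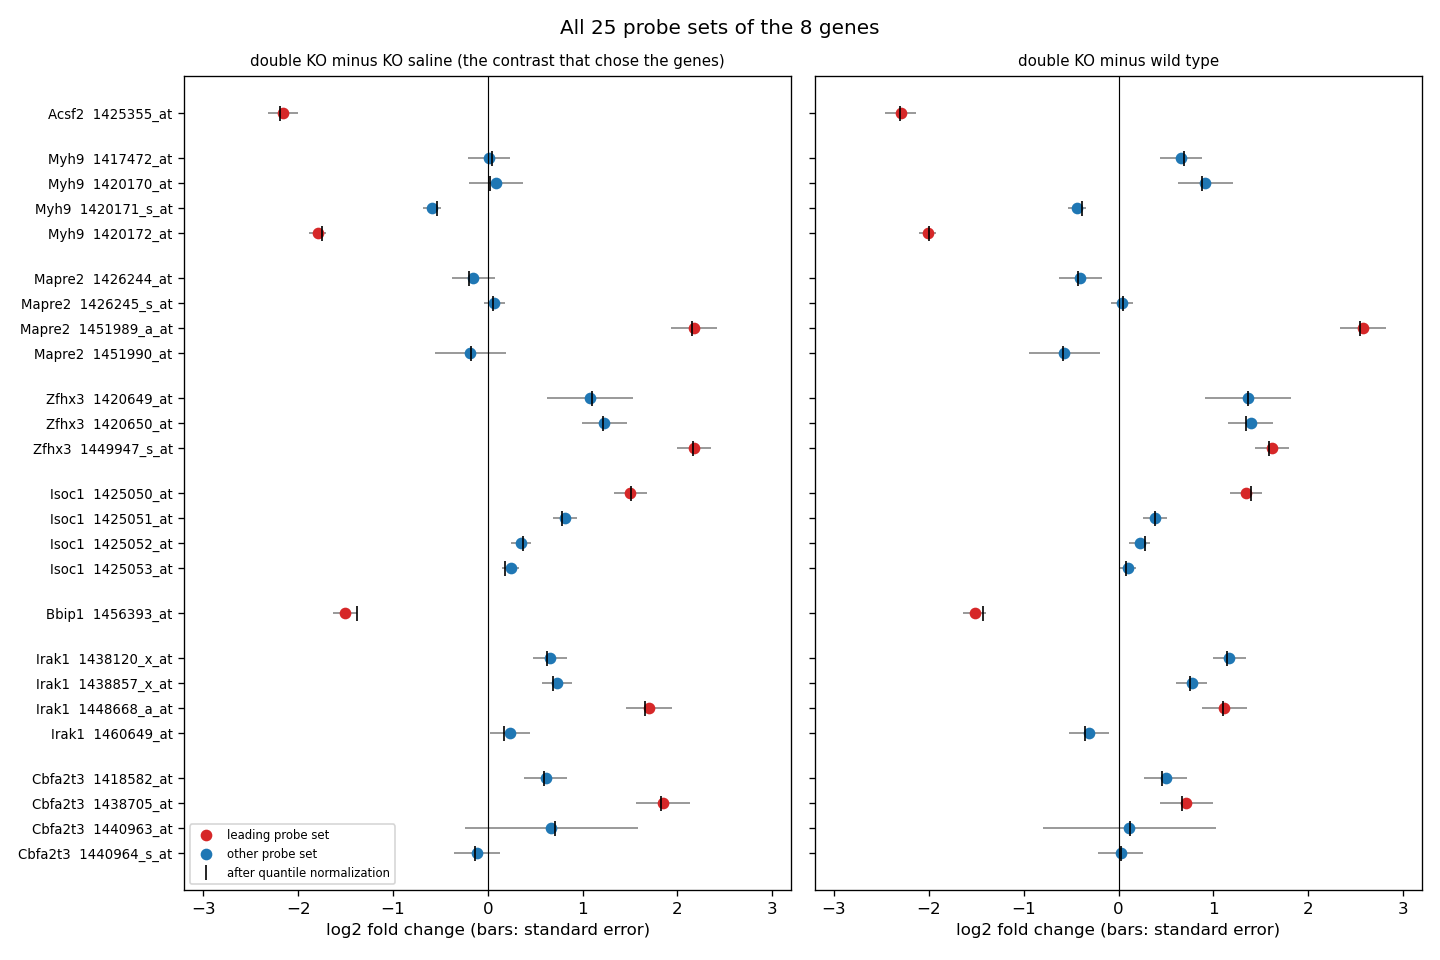
Log2 difference of the double knockout from the saline-infused knockout (left) and from wild type (right) for all 25 probe sets, grouped by gene, with the standard error as a bar, the leading probe set in red and a tick at the value after quantile normalization. On the left the spread among probe sets of a gene runs from -1.79 to 0.09 for Myh9 and from -0.18 to 2.17 for Mapre2, and Zfhx3 and Isoc1 lie on 1 side of 0 throughout.

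Wild type and the gastrin-infused knockout were set beside the double knockout and the saline-infused knockout, as a description. On 14 of the 25 probe sets the 3 double knockout arrays were all above (10) or all below (4) the 9 others, as were all 8 leading ones. This held for 7.47% of all probe sets. The count uses the double knockout and saline-infused arrays on which the genes were chosen, so nothing is read from the difference between these shares. Against wild type 11 of the 25 probe sets passed the threshold, 7 higher and 4 lower, where 4.14% of all did. Leading probe sets of 7 genes were among them and that of Cbfa2t3 was not. That of Irak1 was lost as well when any of the 6 arrays but wild type replicate 2 was left out. Without double knockout replicate 3 or wild type replicate 1 the count was 7 of 25. The comparison with wild type shares the double knockout arrays with the one that chose the genes and is given as a description.

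For the leading probe sets, on the log2 scale, the place of wild type on the way from the saline-infused knockout to the double knockout, in percent of that distance, was -6.41% for Acsf2, -12.2% for Myh9, -18.6% for Mapre2, -0.706% for Bbip1 and 10.5% for Isoc1. For these 5 genes wild type lay near the saline-infused knockout. It was 25.7% for Zfhx3, 34.4% for Irak1 and 61.3% for Cbfa2t3, whose wild type level was closer to the double knockout. The gastrin-infused knockout stood at 26.1%, 30.3% and 56.0% for these 3 genes, and between -19.0% and 13.7% for the other 5. On the leading probe sets of Zfhx3, Irak1 and Cbfa2t3 the mean of the gastrin-infused knockout was therefore on the wild type side of the saline-infused knockout, by log2 differences of 0.57 ± 0.18, 0.52 ± 0.24 and 1.04 ± 0.28. These values rest on the same saline-infused arrays that chose the genes and their leading probe sets, and some other probe sets of the genes differed. The saline-infused knockout was above wild type in mean on Zfhx3 1420649_at (0.28 ± 0.45) and 1420650_at (0.16 ± 0.24) and on Irak1 1438120_x_at (0.52 ± 0.18), where gastrin minus saline infusion was -0.50 ± 0.18. Irak1 1460649_at instead went with the leading probe set. There the saline-infused knockout was -0.55 ± 0.21 from wild type, and gastrin minus saline infusion was 0.77 ± 0.21. In that comparison of gastrin with saline infusion 0 of the 25 probe sets passed (5 at an unadjusted p under 0.05 by limma), where 1.25% of all did.

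The gastrin-infused knockout against wild type is the comparison whose difference of means uses none of the arrays on which the genes were chosen, and it is tested. Its standard errors come from the fit over all 12 arrays, so they do share those arrays, and a fit on the 6 arrays of these 2 groups alone is given beside it. Of the 25 probe sets 0 passed limma's adjusted threshold and 4 were below 0.05 unadjusted, with 0.110% and 11.6% of all probe sets as the background. On the 6 arrays alone 0 of 25 passed (lowest adjusted p 0.210, limma) and 5 were below 0.05 unadjusted, with 0.0133% and 11.5% as the background. The 3 arrays of 1 group did not overlap with those of the other on 5 of the 25, against 16.7% of all. The median size of the log2 difference was 0.06 for the 8 leading probe sets, 0.14 for the 25 and 0.19 for the array as a whole.

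By gene, the log2 difference of Acsf2 was 0.02 ± 0.16, with a 95% interval of -0.35 to 0.38. For Bbip1 it was 0.06 ± 0.12 (-0.22 to 0.33), for Mapre2 -0.01 ± 0.24 (-0.55 to 0.53) and for Zfhx3 0.01 ± 0.18 (-0.40 to 0.42). These intervals hold 0 and end well short of the sizes seen in the double knockout. Isoc1 gave -0.23 ± 0.17 (-0.62 to 0.16), Irak1 -0.07 ± 0.24 (-0.62 to 0.48) and Cbfa2t3 -0.10 ± 0.28 (-0.73 to 0.54). On the 6 arrays alone the 95% intervals of these 7 genes also held 0 and reached from -0.79 to 0.65 at the widest, for Irak1. A missed threshold does not show that the groups are alike, and the intervals give the differences that these arrays leave possible.

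Myh9 was the exception in its leading probe set. All 3 gastrin-infused arrays were below all 3 wild type arrays, by -0.47 ± 0.09 (-0.67 to -0.26; limma adjusted p 0.111, and 0.0906 after quantile normalization), which missed the threshold. On the 6 arrays alone the interval was -0.65 to -0.28 and the adjusted p 0.210. Its probe sets 1417472_at and 1420170_at lay the other way, by 0.61 ± 0.22 (adjusted p 0.344) and 1.04 ± 0.29 (adjusted p 0.253). A second Isoc1 probe set, 1425051_at, was lower in every gastrin-infused array than in wild type (-0.46 ± 0.13, adjusted p 0.254). None of these passed.

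**Figure D3:**
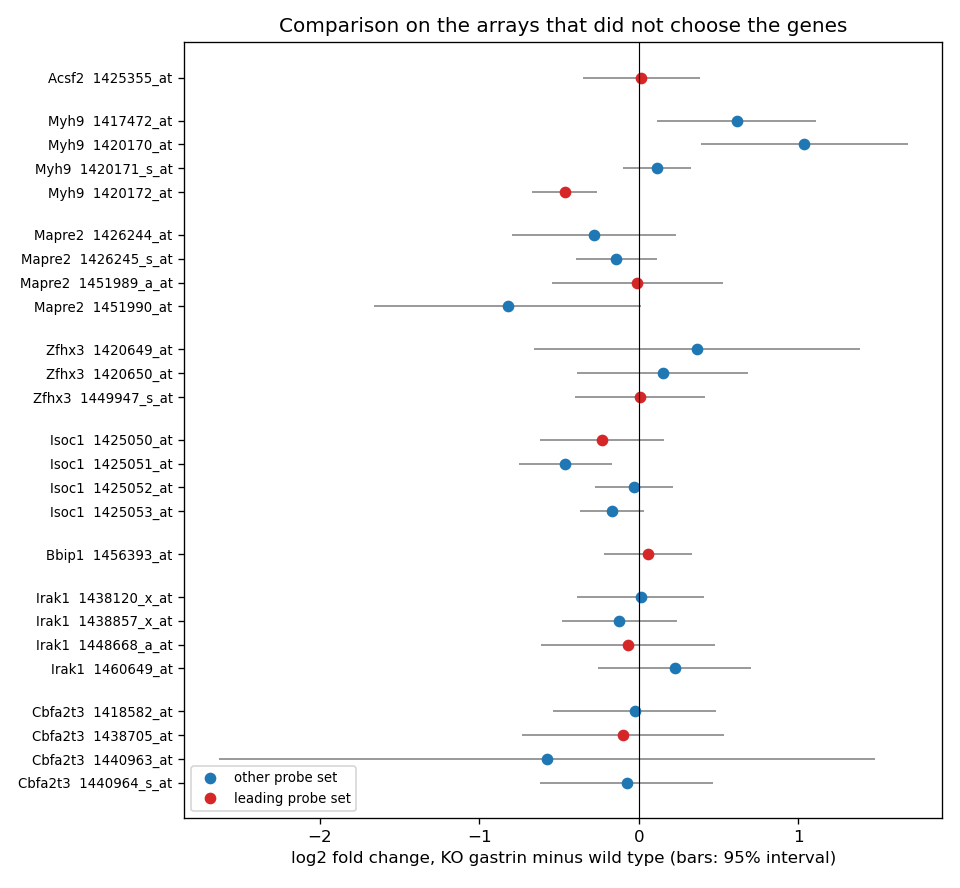
Log2 difference of the gastrin-infused knockout from wild type for all 25 probe sets, grouped by gene with the leading one in red, and bars for the 95% interval. The intervals of 7 leading probe sets include 0, and that of Myh9 runs from -0.67 to -0.26 with an adjusted p of 0.111.

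Other genes of the members' families and pathways were listed by function, 122 genes of which 97 were measured, and the brightest probe set of each was taken. Between the double knockout and the saline-infused knockout 8 of the 97 passed, 2 higher and 6 lower (8.25%, beside 5.98% of all probe sets), with a median log2 difference of -0.01 (0 over the array). These shares are not like for like, since the 5.98% includes dim probe sets. A fit on only the 11313 probe sets at or above the median intensity called 1822. The 2 related genes that rose are Pex11a, a protein of peroxisome division, and Ttc8, a subunit of the BBSome to which Bbip1 also belongs. Pex11a went from 465 to 879 in group mean (0.94 ± 0.14, adjusted p 0.00957). Ttc8 went from 241 ± 29.7 to 409 ± 38.4 (SD, n = 3; 0.77 ± 0.12, limma adjusted p 0.00957), opposite in direction to Bbip1. The Ttc8 means in wild type and the gastrin-infused knockout were 329 and 309, so the saline-infused knockout was the low group for this gene. Against wild type the double knockout did not pass on Ttc8 (0.315 ± 0.115, limma adjusted p 0.173). Pex11a and Ttc8 both kept their call against saline infusion when any 1 of the 6 arrays was left out (highest adjusted p 0.0387 and 0.0341). Of the other 6 measured BBSome and transport genes none passed.

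Among 15 measured genes of nonmuscle myosin II and its partners 4 fell in the intensities as deposited (2 after quantile normalization) and 0 rose. They were the myosin light chains Myl12a (-0.61 ± 0.12, adjusted p 0.0260) and Myl12b (-0.40 ± 0.08, 0.0194), the tropomyosin Tpm4 (-0.51 ± 0.10, 0.0218) and cytoplasmic gamma-actin, Actg1 (-0.44 ± 0.10, 0.0339). After quantile normalization 2 remained past the threshold, Myl12a (-0.49, 0.0317) and Tpm4 (-0.39, 0.0146), while Myl12b (-0.14, 0.240) and Actg1 (0.07, 0.585) did not, and the sign of Actg1 turned. All 4 also lost the call without double knockout replicate 1 or 3 or saline-infused replicate 1 or 2, Myl12a also without saline-infused replicate 3, and Actg1 also without double knockout replicate 2. For Tpm4 the saline-infused knockout was the high group, with means of 7233 in wild type, 9456 with saline, 6678 with gastrin and 6659 in the double knockout. The double knockout differed from wild type by -0.13 ± 0.10 on Tpm4 (limma adjusted p 0.546). After quantile normalization Tpm4 was also lower with gastrin than with saline infusion (-0.44, limma adjusted p 0.0191). Another myosin II heavy chain, Myh14, read 4200 ± 365 and 3010 ± 611 (-0.50 ± 0.15, adjusted p 0.0938), which did not pass.

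The remaining calls on the brightest probe sets were single genes. Slc27a4, a fatty acid transport protein with acyl-CoA synthetase activity, fell among 14 genes of that class (-0.41 ± 0.10, adjusted p 0.0467). Tlr4, the receptor for bacterial lipopolysaccharide, fell among 17 genes of interleukin-1 and Toll-like receptor signalling, from 711 to 521 in group mean (-0.45 ± 0.10, adjusted p 0.0334). Both calls were lost without any 1 of the 6 arrays. The Tlr4 means in wild type and the gastrin-infused knockout were 496 and 457, so the saline-infused knockout was the high group for this gene. The double knockout differed from wild type by 0.07 ± 0.10 on Tlr4. Myd88, the adaptor through which Irak1 is recruited, read 1888 ± 160 and 1772 ± 47.3 (SD, n = 3; -0.09 ± 0.10) and did not pass.

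Of 12 microtubule plus-end genes, 8 zinc finger homeobox genes and partners, and 15 ETO family genes and partners, none passed on its brightest probe set. After quantile normalization the microtubule genes Mapre1 and Macf1 (0.24, adjusted p 0.0411) did. Mapre1, which encodes EB1, a relative of EB2 at microtubule ends, read 2286 ± 153 and 3159 ± 502 (0.46 ± 0.14, adjusted p 0.0862; 0.0352 after quantile normalization). The third relative, Mapre3, had group means of 156 and 154. Cbfa2t2, an ETO relative of Cbfa2t3, read 1158 ± 46.5 and 1011 ± 83.6 (-0.20 ± 0.08) and did not pass.

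Taking all 183 probe sets of the 97 genes, 16 passed, 6 higher and 10 lower (8.74%, beside 5.98% of all probe sets), and 6 genes passed only on a dimmer probe set than the one used above. Nfkbia, the inhibitor that holds NF-kappaB in the cytoplasm, was lower on 2 of its 4. Its group mean on 1420089_at was 994 in the saline-infused knockout and 356 in the double knockout (-1.49 ± 0.18, limma adjusted p 0.00422), and on 1449731_s_at 3796 and 2292 (-0.73 ± 0.09, 0.00513). Both calls held without any 1 of the 6 arrays, and its brightest probe set lay in the same direction without passing (-0.53 ± 0.15, 0.0815). On 1449731_s_at Nfkbia was also lower with gastrin than with saline infusion (-0.76 ± 0.09, adjusted p 0.0124), so the saline-infused knockout was the high group there.

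The other 5 genes were less stable. Map3k7, the kinase TAK1, was higher on 2 of its 5 probe sets (0.55 ± 0.13, adjusted p 0.0379, and 0.81 ± 0.15, 0.0180). The saline-infused knockout had the lowest mean on both. In wild type, saline-infused, gastrin-infused and double knockout the means were 515, 290, 415 and 426 on the first, and 167, 110, 206 and 191 on the second. The second was also higher with gastrin than with saline infusion (0.92 ± 0.15, limma adjusted p 0.0312), a call lost without 5 of the 6 arrays. Tirap, an adaptor of Toll-like receptors (0.83 ± 0.20, 0.0469), and Runx1, a transcription factor (0.62 ± 0.15, 0.0408), were higher on 1 each. Ppp1cb, a catalytic subunit of the phosphatase that acts on myosin light chains (-0.78 ± 0.18, 0.0414), and Acaa1a, a peroxisomal thiolase (-0.71 ± 0.16, 0.0340), were lower on 1 each. The second Map3k7 probe set lost its call without double knockout replicate 1 or 3, and the other 5 probe sets each lost theirs without at least 5 of the 6 arrays.

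Against wild type 8 of the 97 related genes passed in the double knockout on their brightest probe set, 4 higher and 4 lower (8.25%, beside 4.14% of all probe sets, dim ones included). Over their 183 probe sets the share was 4.92%. Acsl6, an acyl-CoA synthetase (0.89 ± 0.15, limma adjusted p 0.0190), Pex11a (0.68 ± 0.14, 0.0359), Cbfb, the partner subunit of the RUNX factors (0.59 ± 0.13, 0.0429), and Tcf12, an E protein (0.40 ± 0.09, 0.0387), were higher. Slc27a4, Myl12b, Actg1 and Mapre3 (342 to 154 in group mean, -1.12 ± 0.23, 0.0355) were lower. Acsl6 lost its call without double knockout replicate 1 or 3, and Slc27a4, Pex11a, Mapre3 and Tcf12 without any 1 of the 6 arrays. Myl12b and Actg1 kept theirs only without double knockout replicate 2, and Cbfb only without wild type replicate 2. After quantile normalization Myl12b, Actg1 and Tcf12 did not pass (adjusted p 0.475, 0.547 and 0.0530). In the gastrin-infused knockout 0 of the 97 passed against wild type on any probe set (0.110% of all probe sets did), and on the brightest probe sets 1 passed against saline infusion (1.25% of all did), Tlr4 (-0.63 ± 0.10, adjusted p 0.0276), a call kept only without saline-infused replicate 2 among the 6 arrays left out in turn.

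**Figure D4:**
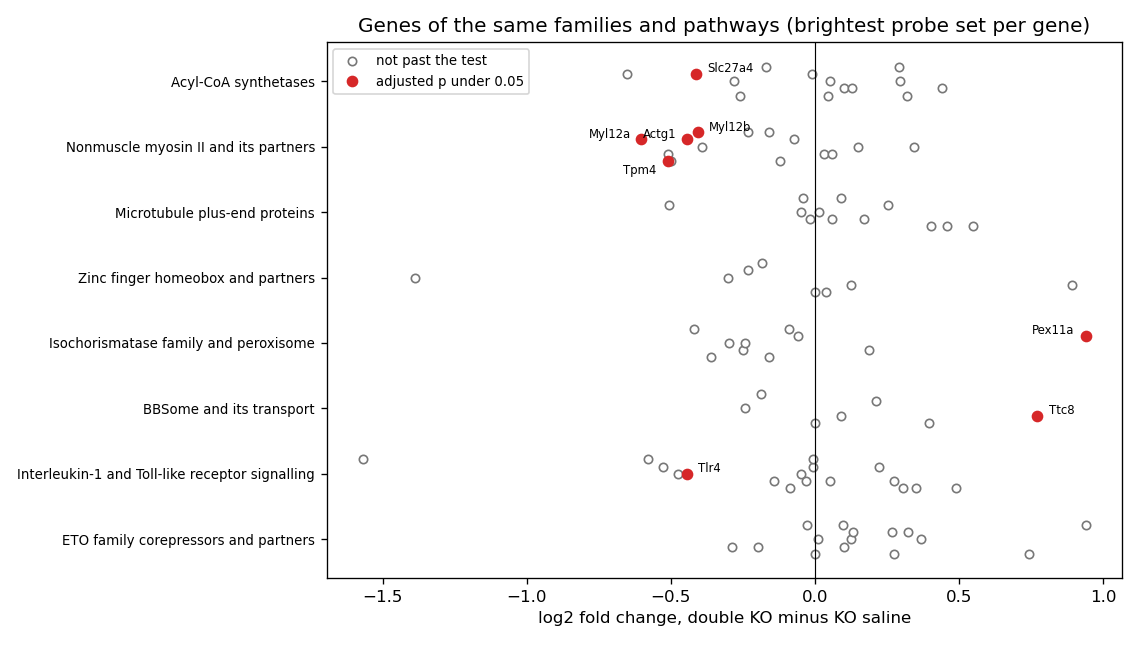
Log2 difference of the double knockout from the saline-infused knockout for the 97 related genes, 1 row per list, with filled points for the 8 at a limma adjusted p under 0.05. Pex11a and Ttc8 lie to the right of 0, and Slc27a4, Tlr4 and 4 genes of the myosin list to the left; vertical offsets only separate points.

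The probe sets most like each leading probe set over the 12 arrays were found among 10383 to 10387 of other genes, by Pearson r of log2 values. The 12 points fall into groups, so r mostly restates the separation of the double knockout. Acsf2 was closest to Rpf2, a ribosome assembly factor (r = 0.99), whose mean was 815 in the saline-infused knockout and 297 in the double knockout, and to Nupr1, a stress-induced chromatin protein (0.96). Myh9 was closest to Bbip1 and Acsf2 (0.95 each). Bbip1 was closest to Ilrun and Nudt22 (0.97 each).

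Among the genes that were higher, Mapre2 was most like Rbm39, a splicing factor, and Id4, an inhibitor of helix-loop-helix transcription factors (0.98 each). The Id4 mean was 310.0 in the saline-infused knockout and 1051 in the double knockout. Zfhx3 was most like Safb (0.97), a nuclear scaffold and RNA-binding protein, and Foxp1 (0.95), a forkhead factor. Isoc1 was most like Itga6, the integrin alpha 6 chain of hemidesmosomes, and Sfxn1, a mitochondrial serine transporter (0.98 each). Irak1 was most like Ppp3ca, a catalytic subunit of calcineurin (0.97), and AW209491 (0.96), and Cbfa2t3 most like Ttc3 (0.93) and Zfp868 (0.92). The genes next to the 8 on their chromosomes, 2 measured on each side and 32 in all, were read on their brightest probe set. They held 1 that passed (3.13%, beside 5.98% of all probe sets, dim ones included), Dtna beside Mapre2. Dtna rose by 0.74 ± 0.08 (adjusted p 0.00354). After quantile normalization Txn2 beside Myh9 passed too (0.31, adjusted p 0.0239).

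The arrays were alike in their middle and differed at their bright end. Array medians lay between 403 and 421, but the maximum on double knockout arrays was 65365 to 71514, against 88899 to 113441 on the other 9. The brightest 1% of probe sets had a median log2 difference of -0.43 between the double knockout and the saline-infused knockout, and -0.02 after quantile normalization. The leading probe sets of the 8 genes kept their differences after that normalization, at -2.20 for Acsf2, -1.75 for Myh9, -1.38 for Bbip1, 2.15 for Mapre2, 2.17 for Zfhx3, 1.51 for Isoc1, 1.66 for Irak1 and 1.83 for Cbfa2t3.

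**Figure D5:**
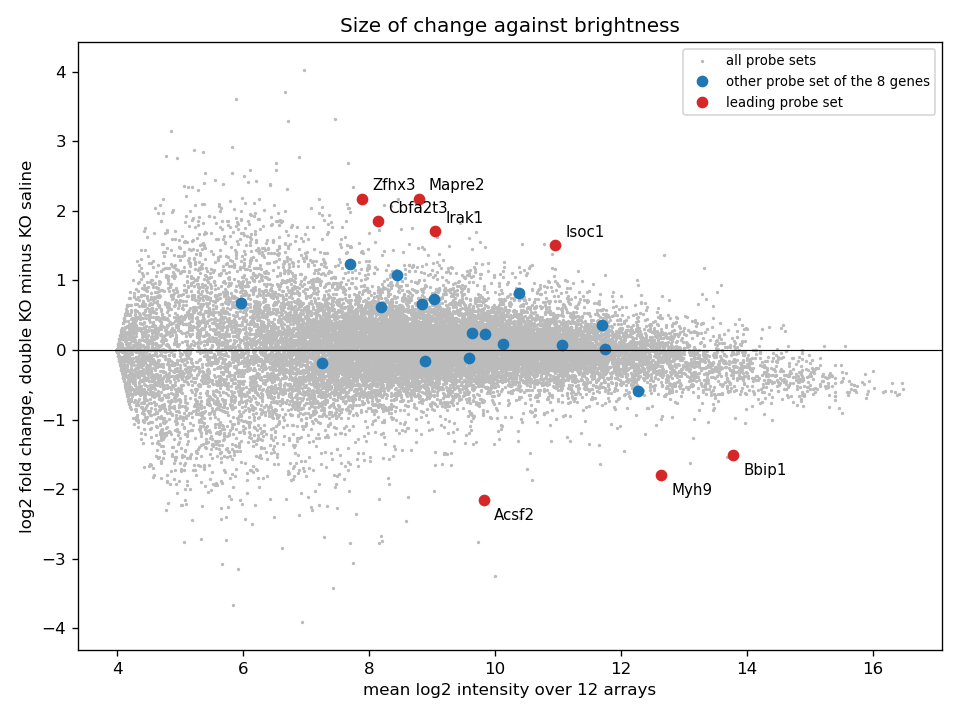
Log2 difference of the double knockout from the saline-infused knockout against mean log2 intensity over the 12 arrays, with all probe sets in grey, the 8 leading ones in red with their names and the 17 others of the same genes in blue. The grey points turn below 0 at the bright end, toward which Bbip1 and Myh9 lie, and the red points are at or beyond the edge of grey points of like brightness.

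Gast, the targeted gene, read 318 to 823 in wild type and at most 37 in the 3 knockout groups, whereas Cck was near the noise in all groups and checks nothing. The 11 measured markers of fundic epithelium summed to 456176 to 476327 on double knockout arrays and 596586 to 687099 on saline-infused ones, with 6 lower and 0 higher. After quantile normalization the sums were 610825 to 647655 and 595806 to 606936, with 0 lower and 1 higher. The forestomach markers ranged widely within groups, with summed levels of 7002 to 56125 and 13218 to 59704 in these 2 groups, and 0 of 11 passed. The other cell lists (stroma, blood, T, B and myeloid cells, pancreas, intestine and sex genes) held 1 call, the blood gene Hbb-b2. It was lower in the double knockout than in the saline-infused knockout (-2.36 ± 0.25, limma adjusted p 0.00296). That size exceeded those of the 8 leading probe sets. Hbb-b2 signal spanned 405 to 516 over both infused groups. Over wild type and double knockout arrays it spanned 74 to 185, near the noise on some. The other blood genes did not pass, and the part of infusion was not tested. The defining intestinal genes Lct, Cdx1 and Cdx2 were mostly within the noise. The part of these markers in the differences of the 8 genes was not tested. The 3′ to 5′ signal ratio of the Gapdh control probes, a reading of RNA integrity and labelling, was 1.29 to 1.32 on double knockout arrays, 1.01 to 1.18 on saline-infused, 1.17 to 1.21 on gastrin-infused and 0.983 to 2.00 on wild type arrays. With this ratio as a covariate the log2 differences from the saline-infused knockout were -2.15 for Acsf2, -1.76 for Myh9, -1.48 for Bbip1, 2.21 for Mapre2, 2.18 for Zfhx3, 1.45 for Isoc1, 1.56 for Irak1 and 1.80 for Cbfa2t3.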

How the data were processed

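The deposited table of the authors holds 1 linear intensity per probe set and array, as whole numbers, with 5.52% to 6.43% of them below 0 on an array. How the authors scaled and summarised the probes is not given in the sources used here, and depth has no meaning for arrays: the 3 arrays per group limit the precision. Of 22690 probe sets 64 controls were left out. Symbols came from the platform's probe table (20380 probe sets with 1 symbol, 691 with several, 1555 not listed).

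A floor of 16 was set and log2 taken, with no further scaling. One mean per group was fitted over all 12 arrays (limma 3.58.1, R 4.3.3, empirical Bayes, 8 residual and 1.10 prior degrees of freedom), and p-values were adjusted by Benjamini and Hochberg's method across all 22626 (threshold 0.05). The test was tried on simulated data. Figures were drawn with matplotlib 3.10.9 (Python 3.11.15).

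The members and lists were chosen with earlier results of these data known. All members were named with every probe set, led by the one with the smallest p in the choosing comparison. Related genes were named where they passed, or as the closest relatives or partners of a member, and patterns as the 2 highest r among probe sets no dimmer than the median intensity of 417. Alternatives were quantile normalization, floors of 1 and 64, a brightness filter, the Gapdh 3′ to 5′ ratio as a covariate, 2 groups only, the replicate block and leaving out each array.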

Additional observations from a re-analysis of the deposited data

How the results depend on the processing

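The fitted differences of the 8 leading probe sets between the double knockout and the saline-infused knockout kept their sign in all 110 alternative fits, with ranges of -2.27 to -2.01 (Acsf2), -1.88 to -1.72 (Myh9), -1.63 to -1.38 (Bbip1), 1.99 to 2.39 (Mapre2), 2.05 to 2.31 (Zfhx3), 1.35 to 1.66 (Isoc1), 1.52 to 1.80 (Irak1) and 1.59 to 2.13 (Cbfa2t3). The genes and their leading probe sets were chosen on this comparison, so the kept signs describe the choice and carry no test. Zfhx3 and Cbfa2t3 lie below the brightness filter and have no value there. In the gastrin-infused knockout against wild type 17 of 110 fits turned the sign and 0 passed (lowest adjusted p 0.072). The sign turned with quantile normalization for Zfhx3 (-0.019), with the Gapdh ratio as a covariate for Irak1 (0.084), and when an array was left out for Acsf2 (-0.058 to 0.15), Mapre2 (-0.23 to 0.11), Zfhx3 (-0.10 to 0.17), Bbip1 (-0.042 to 0.12), Irak1 (-0.25 to 0.13) and Cbfa2t3 (-0.23 to 0.11).

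Counts over all probe sets moved more, and the causes were not tested beyond the fewer arrays in some fits. Between the double knockout and the saline-infused knockout the count was 1352, and 208 with 2 groups only and 496 to 928 with an array left out. Against wild type the double knockout count was 936, and 43 with 2 groups only, 607 with the Gapdh ratio and 323 to 613 with an array left out. The gastrin-infused knockout against wild type gave 25, and 51 after quantile normalization, 62 with a floor of 64, 74 with bright probe sets only, 12 with the Gapdh ratio, 3 with 2 groups only and 13 to 43 with an array left out. Against saline infusion it gave 282, and 590 after quantile normalization, 705 with bright probe sets only, 152 with the Gapdh ratio, 20 with 2 groups only and 67 to 137 with an array left out. With the replicate block these 4 counts were 1145, 703, 8 and 140. The labels give no pairing by replicate number, and the correlations cannot exclude it. Of 18 same-numbered pairs 1 correlated above 0.1 (r from -0.12 to 0.20), and in 3 of the 18 the same-numbered sample was the best match. Between the saline-infused and the double knockout this was so for replicates 2 (r = 0.197) and 3 (r = 0.0956). Signal within the noise touches Cbfa2t3 1440963_at (7 of 12 arrays) and Mapre2 1451990_at (1 of 12). On saline-infused replicate 3, with a noise level of 95, the leading probe sets of Cbfa2t3 and Zfhx3 read 98 and 120. Their fold differences from the saline-infused knockout thus rest on readings not far above the noise.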
